A study of Mus musculus with 4 samples.

Results

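The genes described here encode the acid hydrolases, cathepsins and membrane proteins of the lysosome, together with the transcription factor Tfeb and the secreted glycoprotein progranulin (Grn). They were chosen by name from a list of 41 genes, and 40 of them had a probe set with a single gene symbol, out of 22180 genes so measured on the arrays. Glb1 (beta-galactosidase) was the exception, since its only probe set is shared with Tmppe. Expression was measured in mast cells of BALB/c mice on Affymetrix arrays, and each of the 4 groups has a single array (n = 1). Bone marrow-derived mast cells (BMMCs) had been raised in culture over 3 to 4 weeks; their medium held stem cell factor (10 ng/ml) and IL-3 (10 ng/ml). A control portion then stayed in normal medium for 6 days, another received TGF-β1 at 5 ng/ml for 6 days, and the last was kept for 6 days on hamster (CHO) cells made to express the mouse Notch ligand Dll1. Cells from that coculture were recovered by magnetic selection for c-Kit. The intestinal group was sorted by flow cytometry for FcεRI and c-Kit from small intestinal lamina propria of naive mice. How many cultures or animals stood behind an array is not stated, and no difference below has a replicate check or a p-value.

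Lysosomes are acidic compartments in which proteases, glycosidases, sulfatases and lipases break down proteins, glycans and lipids. In mast cells the secretory granules are related to lysosomes: they are acidified by the same type of proton pump, they hold lysosomal enzymes such as beta-hexosaminidase beside the mast cell proteases, and Cd63 on their membrane reaches the cell surface when they are released. Newly made hydrolases carry a mannose 6-phosphate tag that receptors in the Golgi recognise. Transcription of many lysosomal genes is known to be driven by the related factors Tfeb, Tfe3 and Mitf, which bind E-box sequences near the start of these genes.

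Values are deposited log2 expression values, so a difference of 1 is a 2-fold change; they are compared within a gene between arrays and not between genes. The background limit of an array was the 95th percentile of its values for 1440 probe sets for odorant, pheromone and bitter taste receptors, which mast cells are not expected to use. The limits were 5.11 on the control array, 5.20 after TGF-β1, 5.12 after Dll1 coculture and 5.11 on the intestinal array. Calls of higher or lower needed a level over the limit on 1 or both of the compared arrays and a difference of 2-fold or more, with any value under the limit raised to it. A fold that rests on such a raised value is given as "at least". In 290 genes with a pair of probe sets above background on all 4 arrays, the standard deviation of a single probe set's log2 difference was 0.24 between the TGF-β1 and control arrays, 0.33 between Dll1 and control, 0.46 between intestine and control, and 0.31 between Dll1 and TGF-β1. That figure measures how far the pair of probe sets of a gene disagree, which is not array error alone. It leaves out the variation between cultures or mice.

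All 6 measured mast cell markers (Kit, Fcer1a, Ms4a2, Cpa3, Gata2 and Hdc) were above background on every array. Intestinal cells were sorted for FcεRI and c-Kit and Dll1 cells selected for c-Kit, so these markers cannot test the label there. Gata2 was listed for basophils too. The summed linear level of the 6 mast cell markers was 23822 in control, 21036 after TGF-β1, 22570 after Dll1 coculture and 16102 on the intestinal array. In intestinal cells 5 of the 6 were lower than in control, with a median log2 difference of -0.52. Markers of other cells and of handling moved with the groups. On the intestinal array 11 of 16 macrophage and dendritic cell markers were above background, against 5 in control BMMCs, and their summed linear level was 4530 against 1224; C1qc, Mrc1, Siglec1, Cd163 and Zbtb46 stayed below the limit there. Lymphoid markers were above background for 13 of 15 (6 in control, sums 6518 and 3795). Epithelial markers were above it for 14 of 20 (5 in control, sums 2183 and 610), and B and plasma cell markers for 7 of 9 (3 in control, sums 1406 and 1098). Still below the limit on that array were Cd2, Klrb1c, Epcam, Vil1, Lgr5, Chga, Sis, Cldn7, Ms4a1 and Blk. These 3 intestinal sums lean on single bright genes. Gzmb read 11.77 (11.70 in control), Cdh1 10.12 (6.16 in control, 7.57 after TGF-β1) and Xbp1 9.98 (9.74 in control). The macrophage and dendritic cell sum leans on Itgax (11.19, 4.86 in control) and Cx3cr1 (10.35, 9.44 in control). Of those 16 markers 4 were called higher than in control, against 4.47% of all genes tested, and none lower. On the Dll1 array 13 of 14 neutrophil markers were above background (6 in control; sums 2124 and 517), 5 of 7 eosinophil markers (3 in control; sums 4273 and 259) and 14 of 18 genes of adherent feeder cells (9 in control; sums 2226 and 2637). The feeder sums lean on Vcl, which read 10.99 in control and 10.11 with Dll1. Dll1 itself read 7.10 on the coculture array against 4.79 in control, and was above background on the coculture array only. Of the 18 feeder genes 4 were called higher with Dll1 than in control, against 1.63% of all genes tested, and none lower. Basophil markers were above background for 6 or 7 of 7 on every array. Immediate early and heat shock genes, which can respond to cell handling, had a summed level of 4390 in control, 4548 after TGF-β1, 14875 after Dll1 coculture and 43594 on the intestinal array. With Dll1 the rise was in immediate early genes. Of the heat shock genes, Hspa1a and Hspa1b were below background there, and Dnajb1, Hsph1 and Hspa8 differed from control by 0.41, -0.22 and -0.01. In RNA from a population of cells, fewer cells of a type and less RNA per cell cannot be told apart.

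Most of the lysosomal genes were detected in all groups: 35 of the 40 measured genes were above background on every array, and only Ctsk (cathepsin K, the bone-resorbing protease of osteoclasts) was below it on all 4. The number above background was 37 on the control array, 36 after TGF-β1, 39 after Dll1 coculture and 38 on the intestinal array. The control array gave the highest of the 4 values for 19 of the 40 genes, and the intestinal array gave the lowest for 25. Among 13355 genes above background on any array, the control value was highest for 26.0% and the intestinal value lowest for 33.1%.

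**Figure D1:**
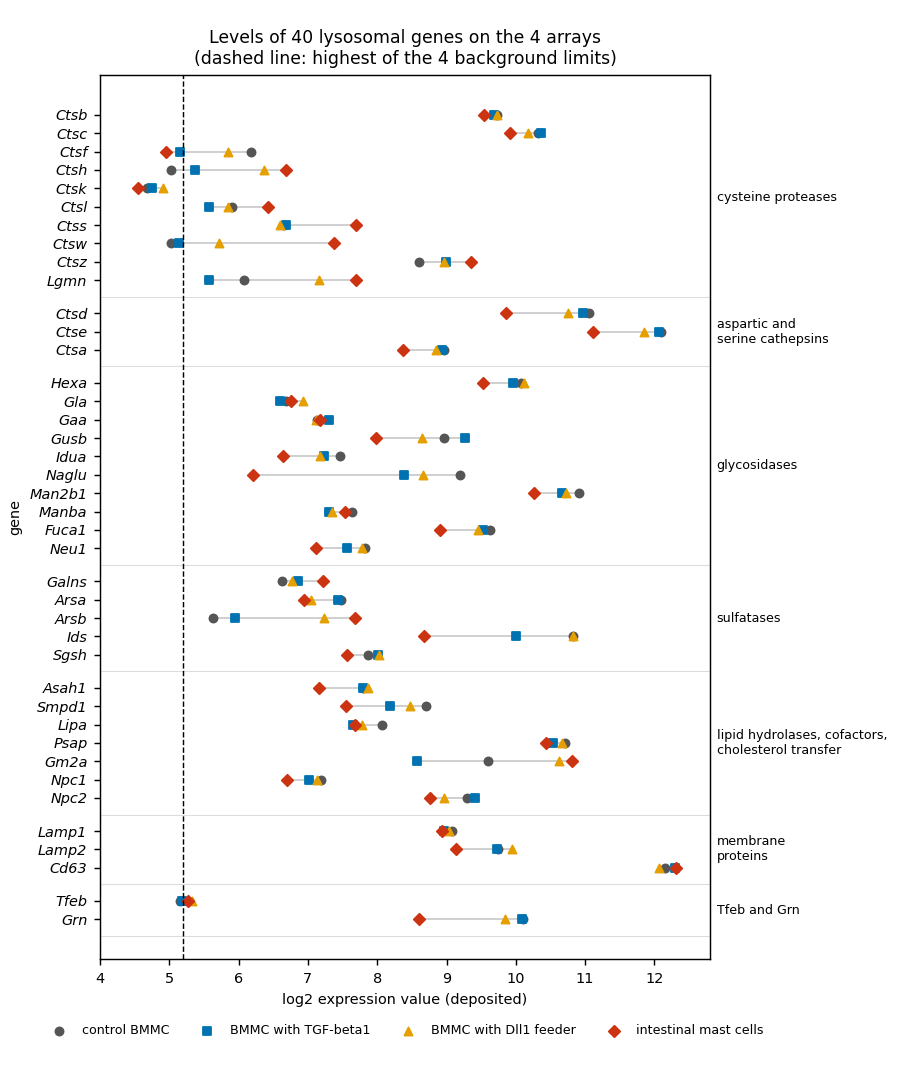
Deposited log2 expression of the 40 measured lysosomal genes (rows, by role) on the 4 arrays, 1 symbol per array; a grey line joins the lowest and highest value of a gene and the dashed line is the highest of the 4 background limits (5.20). Naglu spans the widest range (2.99), from 9.20 in control BMMCs to 6.21 in intestinal mast cells, while Lamp1 spans 0.15.

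Promoters were examined for the E-box that Tfeb, Tfe3 and Mitf are known to bind, using RefSeq windows of GRCm38.p6 from 250 bases before to 50 bases after each transcription start. A window was found for 34 of the 41 genes, of which 4 had more than 1 start; Ctsb, Ctsh, Ctsw, Ctse, Galns, Asah1 and Npc1 had none in the table. The core motif CACGTG, which reads the same on both strands, was present in 12 of the 34 genes (35.3%), against 8.09% of 27025 genes with a window. With 1 more base on either side, as TCACGTG on either strand, it was present in 10 (29.4%, against 4.29%), and the full palindrome TCACGTGA, which contains both shorter forms, in 3 (8.82%, against 1.12%). The 12 were Arsa, Ctsa, Ctsd, Ctsf, Ctsl, Gaa, Gla, Glb1, Lamp1, Lgmn, Naglu and Sgsh. Lamp1 held 4 copies, and Ctsa, Ctsd and Gla held 2 each. These are matches of letters and not shown to be bound sites.

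**Figure D2:**
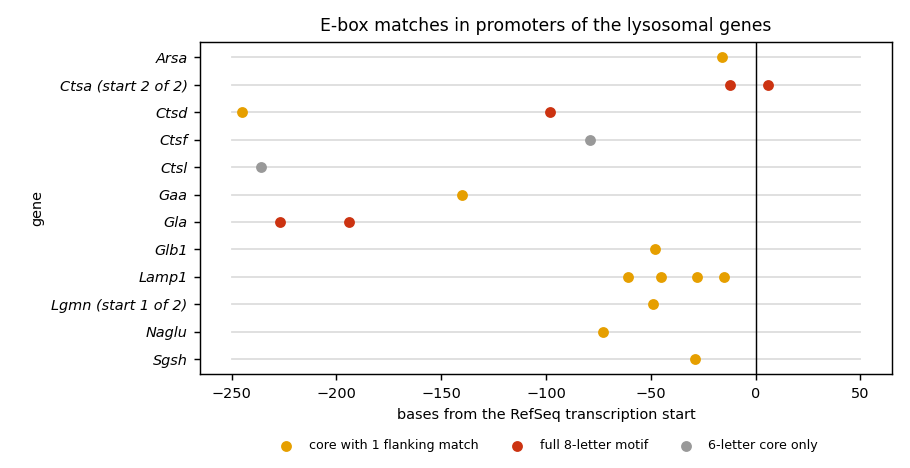
Positions of the core E-box in the promoter windows of the 12 lysosomal genes that hold it, in bases from the RefSeq transcription start (vertical line); grey lines span the searched window from 250 bases before to 50 after. Colour gives the longest form matched, and the 4 copies in Lamp1 begin between 61 and 15 bases before the start.

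The 110 bases before the start are shown for Naglu, Ctsd, Ctsf and Lgmn, which hold an E-box and passed the 2-fold rule in intestinal cells, and for Lamp1, which has the most copies and the smallest range over the arrays. Bases are given 5′ to 3′ on the strand of the gene, with the core motif in capitals. The windows lie at chr11:101069984-101070093 (Naglu, plus strand), chr7:142387828-142387937 (Ctsd, minus strand), chr19:4855055-4855164 (Ctsf, plus strand), chr12:102439093-102439202 (Lgmn, minus strand, 1 of its 2 starts) and chr8:13159051-13159160 (Lamp1, plus strand) of GRCm38.p6.
Naglu: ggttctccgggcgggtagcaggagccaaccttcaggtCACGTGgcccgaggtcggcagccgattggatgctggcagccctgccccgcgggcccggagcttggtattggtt
Ctsd: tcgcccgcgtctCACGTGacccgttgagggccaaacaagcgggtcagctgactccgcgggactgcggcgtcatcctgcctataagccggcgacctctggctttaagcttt
Ctsf: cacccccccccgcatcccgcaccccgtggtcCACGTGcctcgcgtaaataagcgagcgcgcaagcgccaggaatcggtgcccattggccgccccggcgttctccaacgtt
Lgmn: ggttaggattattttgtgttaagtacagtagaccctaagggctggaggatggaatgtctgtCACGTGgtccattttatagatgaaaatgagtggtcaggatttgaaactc
Lamp1: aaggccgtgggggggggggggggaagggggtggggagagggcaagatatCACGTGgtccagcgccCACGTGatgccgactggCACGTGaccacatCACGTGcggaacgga

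The cysteine proteases, which use a cysteine in the active site to cut peptide bonds, split into members that were alike on all arrays and members that were not. Ctsb (cathepsin B) read 9.73 in control BMMCs, 9.68 after TGF-β1, 9.73 after Dll1 coculture and 9.54 in intestinal mast cells. Ctsc (cathepsin C, or dipeptidyl peptidase I, which activates mast cell chymases and granzymes by trimming their propeptides) read 10.32, 10.37, 10.18 and 9.91 in the same order. Both lay within 0.50 on the log2 scale across the 4 arrays. Ctsz (cathepsin Z, a carboxypeptidase) read 8.61, 8.99, 8.97 and 9.35, lowest in control and highest in intestinal cells, below the 2-fold mark.

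Lgmn (legumain, which cuts after asparagine and processes other cathepsins) read 6.07 in control BMMCs, 5.57 after TGF-β1, 7.16 after Dll1 coculture and 7.69 in intestinal cells. It was low on the control and TGF-β1 arrays and high on the Dll1 and intestinal arrays. Against control the Dll1 array was 2.13-fold and the intestinal array 3.08-fold higher, and against TGF-β1 the Dll1 array was 3.00-fold higher. Ctsh (cathepsin H, an aminopeptidase) read 5.03, 5.37, 6.37 and 6.69. It was below background in control BMMCs, so it was at least 2.39-fold higher with Dll1 and at least 2.98-fold higher in intestinal cells. With TGF-β1 it was just above background.

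Ctss (cathepsin S, which trims the invariant chain in antigen-presenting cells) read 6.65, 6.69, 6.59 and 7.69, so that the 3 cultures lay within 0.10 of each other and the intestinal array alone stood apart, 2.05-fold above control. Its neighbour on the chromosome in the RefSeq gene order, Ctsk, read 4.67, 4.75, 4.91 and 4.54, below background throughout. Ctsw (cathepsin W, known from cytotoxic lymphocytes) read 5.03, 5.14, 5.72 and 7.38. It was above background with Dll1 and in intestinal cells, and the latter were at least 4.84-fold above control. Of the lymphoid markers on the same array, Cd3g read 8.84 in intestinal cells against 4.55 in control and Gzma 10.33 against 4.62, and with Dll1 these read 4.51 and 7.92. In intestinal cells 7 of the 15 measured lymphoid markers were called higher. Others did not rise: Thy1 read 5.52 against 5.51 and Gzmb 11.77 against 11.70, and Cd2 and Klrb1c were below background there. Of the macrophage markers, Itgax read 11.19 in intestinal cells against 4.86 in control, C1qa 7.24 against 5.38 and Csf1r 6.55 against 5.01. Cd68 was nearly level, at 6.50 against 6.36. The part of such cells in the Ctsw, Ctss, Ctsh and Lgmn levels was not tested.

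Ctsf (cathepsin F) read 6.18 in control BMMCs, 5.16 after TGF-β1, 5.84 after Dll1 coculture and 4.95 in intestinal cells. It was above background in control and with Dll1 and below it on the other 2 arrays, at least 2.10-fold lower in intestinal cells than in control. Against control the TGF-β1 value lay just outside the 2-fold mark (-0.98 with its TGF-β1 value raised to the limit, -1.03 as measured). Ctsl (cathepsin L) read 5.91, 5.57, 5.85 and 6.43.

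Of the aspartic and serine cathepsins, Ctsd was called lower in intestinal cells and the other two had lower values there without passing the rule. Ctsd (cathepsin D, the main aspartic protease of lysosomes) read 11.05 in control BMMCs, 10.97 after TGF-β1, 10.75 after Dll1 coculture and 9.86 in intestinal cells, a 2.29-fold lower intestinal level. Ctse (cathepsin E, an endosomal aspartic protease) read 12.09, 12.07, 11.85 and 11.11. Its difference of -0.99 for intestinal minus control was just under the mark. Ctsa (cathepsin A, the serine carboxypeptidase that protects beta-galactosidase and neuraminidase) read 8.97, 8.93, 8.85 and 8.37.

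Of the 10 measured glycosidases, 8 had a lower value in intestinal cells than in control BMMCs, with Naglu far below the rest. Naglu (alpha-N-acetylglucosaminidase, which removes N-acetylglucosamine from heparan sulfate) read 9.20 in control, 8.39 after TGF-β1, 8.66 after Dll1 coculture and 6.21 in intestinal cells. The intestinal level was 7.93-fold below control, and the cultured cells with TGF-β1 or Dll1 lay in between, at 0.81 and 0.54 below control on the log2 scale. The gene next to Naglu in the RefSeq order, Atp6v0a1 (a subunit of the vacuolar proton pump), read 7.63, 7.21, 7.37 and 5.58 and was 4.14-fold lower in intestinal cells. Hsd17b1 on the other side read 5.66, 5.73, 5.55 and 5.42.

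Gusb (beta-glucuronidase) read 8.96 in control BMMCs, 9.26 after TGF-β1, 8.64 after Dll1 coculture and 7.98 in intestinal cells, just short of 2-fold below control (-0.98). Hexa (the alpha chain of beta-hexosaminidase, the enzyme used to assay degranulation) read 10.07, 9.96, 10.12 and 9.52, and did not reach 2-fold in any comparison. For Idua (alpha-L-iduronidase) the values were 7.46, 7.23, 7.17 and 6.64. Fuca1 (alpha-fucosidase), Neu1 (neuraminidase) and Man2b1 (alpha-mannosidase) were 0.73, 0.72 and 0.65 lower in intestinal cells than in control. Gla (alpha-galactosidase), Gaa (acid alpha-glucosidase) and Manba (beta-mannosidase) differed by 0.07, 0.05 and -0.11. The probe set shared by Glb1 and Tmppe, not counted among the 40, read 8.57, 8.40, 8.67 and 7.41.

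The sulfatases remove sulfate groups from glycosaminoglycans and sulfatides, and they included the sharpest contrast within a role group. Arsb (arylsulfatase B, which acts on dermatan and chondroitin sulfate) read 5.63 in control BMMCs, 5.95 after TGF-β1, 7.23 after Dll1 coculture and 7.68 in intestinal cells. It was 3.02-fold higher with Dll1 and 4.14-fold higher in intestinal cells than in control, and 2.42-fold higher with Dll1 than with TGF-β1. A second Arsb probe set had the same order with small differences (4.51, 4.58, 4.62 and 4.95). It was below background on all 4 arrays, so it cannot show whether the pattern holds. Ids (iduronate 2-sulfatase, which acts on heparan and dermatan sulfate) read 10.83, 10.01, 10.82 and 8.68. The control and Dll1 arrays were alike, TGF-β1 was lower by 0.81, and intestinal cells were 4.42-fold below control. Galns (which acts on keratan and chondroitin sulfate) was 0.60 higher in intestinal cells, Arsa (arylsulfatase A) 0.52 lower and Sgsh (sulfamidase) 0.29 lower.

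Among genes of lipid breakdown, Gm2a was the one called in opposite directions in the cultures with TGF-β1 and with Dll1. Gm2a encodes the GM2 activator protein, which presents the ganglioside GM2 to beta-hexosaminidase. It read 9.60 in control BMMCs, 8.57 after TGF-β1, 10.62 after Dll1 coculture and 10.81 in intestinal cells. TGF-β1 was 2.04-fold below control, Dll1 2.03-fold above it and intestinal cells 2.31-fold above it, and the 2 cultures with ligand differed by 4.14-fold. The genes on either side of Gm2a did not share this pattern: Ccdc69 read 6.93, 6.80, 6.37 and 7.80, and Slc36a3 was below background on all arrays.

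Smpd1 (acid sphingomyelinase) read 8.71 in control BMMCs, 8.18 after TGF-β1, 8.47 after Dll1 coculture and 7.55 in intestinal cells, and was 2.22-fold lower in the last than in control. Its dimmer probe set gave the same order at a smaller size, with 6.05, 5.83, 5.90 and 5.62. Asah1 (acid ceramidase) was 0.64 lower in intestinal cells than in control, and the cholesterol transfer proteins Npc2 and Npc1 were 0.53 and 0.48 lower. Psap (prosaposin, the precursor of the saposin cofactors) read 10.71, 10.54, 10.67 and 10.44, and Lipa (lysosomal acid lipase) 8.07, 7.65, 7.78 and 7.68.

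None of the 3 membrane proteins reached 2-fold in a comparison. Lamp1, a heavily glycosylated protein that lines the lysosome membrane, read 9.08 in control BMMCs, 8.97 after TGF-β1, 9.04 after Dll1 coculture and 8.93 in intestinal cells. Its range of 0.15 was the smallest of the 40 genes. Lamp2, needed for fusion of autophagosomes with lysosomes, read 9.75, 9.73, 9.94 and 9.14, with the intestinal value 0.61 below control. The granule tetraspanin Cd63 read 12.16, 12.30, 12.07 and 12.31, near the highest value on any array (13.14), where saturation can hide a difference.

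Tfeb, the transcription factor of lysosome genes, was near background, with 5.16 in control BMMCs, 5.18 after TGF-β1, 5.33 after Dll1 coculture and 5.27 in intestinal cells. Its relatives were further above background: Mitf, which mast cells need for their development, read 8.92, 8.26, 9.04 and 8.29, and Tfe3 read 7.56, 7.15, 7.64 and 7.19. Both were highest with Dll1 and lower with TGF-β1 and in intestinal cells, by less than 2-fold. Tfec was below background on all arrays. Grn (progranulin, a secreted protein that is cut into granulins in lysosomes) read 10.10, 10.09, 9.85 and 8.61. The cultures lay within 0.25 of each other and intestinal cells were 2.81-fold below control.

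Between TGF-β1 and control BMMCs, 38 of the lysosomal genes were above background on at least 1 of the arrays. None was called higher, against 0.506% of all genes tested, and 1 (Gm2a) was called lower, against 0.887%. The median log2 difference over the 40 genes was -0.05, and over all genes tested it was -0.03. With values under the limit raised to it, 36 of the 40 were within 1.5-fold of control. The largest differences after Gm2a and Ctsf were those of Ids and Naglu, both 0.81 lower.

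Between Dll1 coculture and control BMMCs, 4 of 39 lysosomal genes above background were called higher (10.3%, against 1.63% of all genes tested) and none was called lower (against 1.78%). The 4 were Arsb, Ctsh, Lgmn and Gm2a. The median over the 40 genes was -0.05, against 0.00 over all genes tested, and 35 of the 40 were within 1.5-fold. The next largest differences were those of Ctsw, 0.61 with its control value raised to the limit, and Naglu, -0.54. With a 99th percentile limit Ctsh (0.45), with probe sets averaged Arsb (0.81) and with array medians subtracted Gm2a (0.94) missed the 2-fold mark. Over all genes tested, 209 were higher and 228 lower, and with array medians subtracted 175 and 318. The summed levels of neutrophil, eosinophil and handling genes, given above, were also higher on this array, and more feeder cell genes were above background. Their part in these 4 differences was not tested. Feeder cells, bead selection and Dll1 came together and cannot be told apart.

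Between intestinal mast cells and control BMMCs, 6 of 39 lysosomal genes above background were called higher (15.4%, against 4.47% of all genes tested) and 6 were called lower (15.4%, against 6.73%). Higher were Ctsw, Arsb, Ctsh, Lgmn, Gm2a and Ctss, and lower were Naglu, Ids, Grn, Ctsf, Ctsd and Smpd1. The median over the 40 genes was -0.40, against -0.01 over all genes tested, and 27 of the 40 had a negative difference, against 50.6% of all genes tested. Ctss and Ctsf were just inside the 2-fold mark, and Ctse and Gusb were just outside it. By role, 4 of the 10 cysteine proteases were higher with a group median of 0.63, while the medians of the glycosidases (-0.69), of the aspartic and serine cathepsins (-0.99) and of the lipid genes (-0.48) were negative. Calls that missed the mark under an alternative were Ctsh (0.77) and Ctsf (-0.26) with a 99th percentile limit, Smpd1 (-0.79) with probe sets averaged and Ctss (0.98) with array medians subtracted. Of the 25 handling genes 23 were called higher in this comparison, and markers of macrophages, lymphoid cells and epithelium had higher summed levels, as given above. The summed level of the mast cell markers was lower (16102 against 23822 in control). The part of each of these in the lysosomal differences was not tested. Flow sorting and the source of the cells differed together between these arrays and cannot be told apart.

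**Figure D3:**
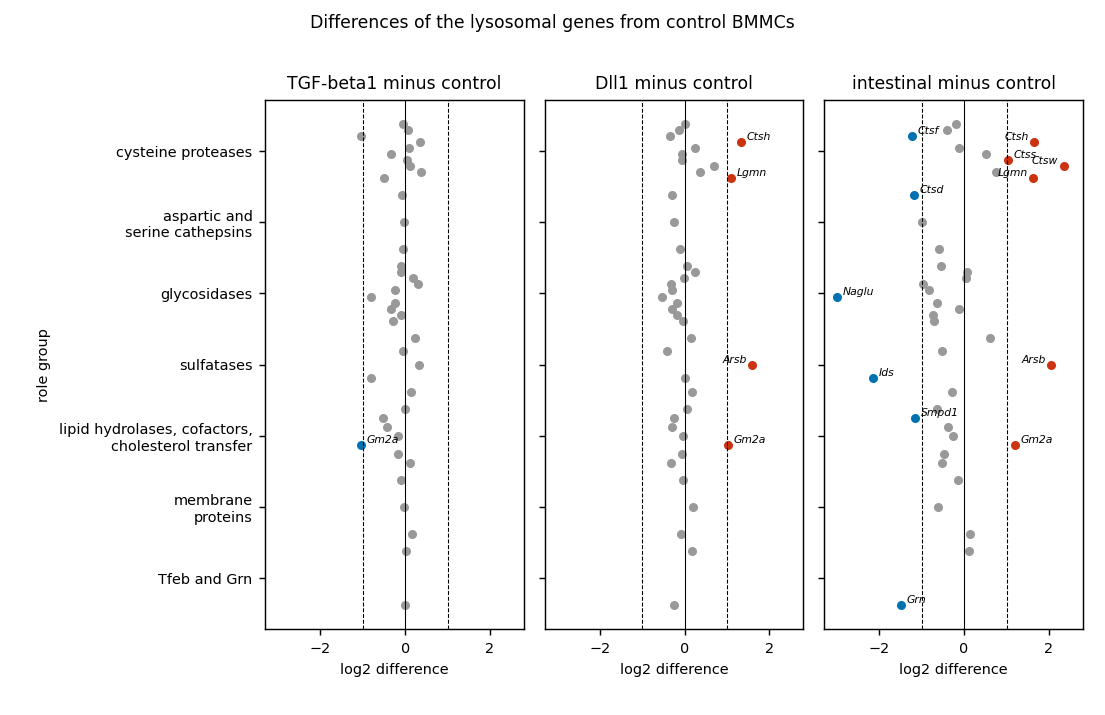
Measured log2 differences of the 40 lysosomal genes from control BMMCs, by role group, for the TGF-β1, Dll1 and intestinal arrays; dashed lines mark 2-fold, red points were called higher, blue points called lower and grey points neither (Ctsf with TGF-β1, at -1.03, is grey because its raised difference is -0.98). The 3 panels share the control array, so a control value moves a gene in all of them; 1 gene was called with TGF-β1, 4 with Dll1 and 12 in intestinal cells.

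The direct comparison of Dll1 coculture with TGF-β1 does not use the control array. Here 3 of 39 lysosomal genes above background were called higher with Dll1 (7.69%, against 2.19% of all genes tested) and none lower (against 1.89%). They were Gm2a (2.05 on the log2 scale), Lgmn (1.59) and Arsb (1.28, or 0.66 with probe sets averaged). Ctsh, at 0.99, was just outside the mark and Ids followed at 0.81. The median over the 40 genes was 0.07, against 0.03 over all genes tested. Set directly against each other, the intestinal and Dll1 arrays differed by 0.18 for Gm2a, 0.32 for Ctsh, 0.46 for Arsb and 0.53 for Lgmn. They differed by -2.44 for Naglu, -2.14 for Ids, -1.24 for Grn, -0.89 for Ctsd and 1.67 for Ctsw.

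The other genes of the lysosome, taken from lists that hold none of the 41, showed few calls in the cultures and more in intestinal cells, as did all genes tested. No gene of the lists of other hydrolases, other membrane proteins, proton pump subunits, sorting genes, regulators or cystatins was called with TGF-β1 or with Dll1 against control. Over all genes tested the shares were also small, 0.506% higher and 0.887% lower with TGF-β1, and 1.63% and 1.78% with Dll1. Under alternatives, 1 other membrane protein and 1 sorting gene were lower with Dll1 (array medians or an offset of 16 subtracted), and 1 other hydrolase was higher with TGF-β1 (offset). In intestinal cells 4 of the 27 genes in the list of other hydrolases were higher and 5 were lower than in control, with a list median of -0.36. That list also holds some genes whose proteins are not hydrolases, such as the acetyltransferase Hgsnat and the membrane protein Tmem106b. The lower ones were Pla2g15 (a lysosomal phospholipase, 2.72-fold), Tpp1 (tripeptidyl peptidase, 2.71-fold), Acp2 (acid phosphatase, 2.61-fold), Hgsnat (which acetylates heparan sulfate for its breakdown, 2.48-fold) and Dpp7 (2.10-fold). Higher were Smpdl3a (at least 3.20-fold), Plbd1 (at least 2.58-fold), Acp5 (tartrate-resistant acid phosphatase, at least 2.12-fold) and Scpep1 (2.04-fold). Smpdl3a, Plbd1 and Acp5 were all below background in control BMMCs. With a 99th percentile limit none of the 4 higher hydrolases passed 2-fold.

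Of 29 other membrane proteins, 4 were lower in intestinal cells and none was higher, with a median of -0.30. They were the transporters Ctns (cystine, 2.32-fold), Slc38a9 (amino acid sensing, 2.26-fold), Slc36a1 (amino acids, 2.25-fold) and Slc17a5 (sialic acid, 2.11-fold). Among 18 subunits of the proton pump, Atp6v0a1 and Atp6v0b (2.76-fold) were lower and Atp6v1h (2.10-fold) was higher, with a median of -0.41. Of 31 sorting genes, the adaptor Gga2, which sorts mannose 6-phosphate receptors, was 3.02-fold higher and the tethering subunit Vps39 2.24-fold lower, with a median of -0.29. Of 18 regulators, Lamtor4 (2.19-fold) and Rragc (2.02-fold), parts of the amino acid sensing machinery on the lysosome surface, were lower, with a median of -0.40. The shares of all genes called in this comparison, 4.47% higher and 6.73% lower, apply to these lists as well.

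Cystatins inhibit cysteine cathepsins. Of 10 measured, Cst3 (cystatin C) read 11.22 in control BMMCs, 11.18 after TGF-β1, 11.07 after Dll1 coculture and 10.42 in intestinal cells, and Cst7 (cystatin F, which is targeted to lysosomes) read 10.44, 10.55, 10.15 and 9.51. Both were lowest in intestinal cells and neither reached 2-fold. Cstb read between 8.47 and 8.98, and the other 7 were below background, apart from Stfa2l1 with Dll1 (5.29). The stefin genes are near-identical copies, so their separate levels are uncertain.

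**Figure D4:**
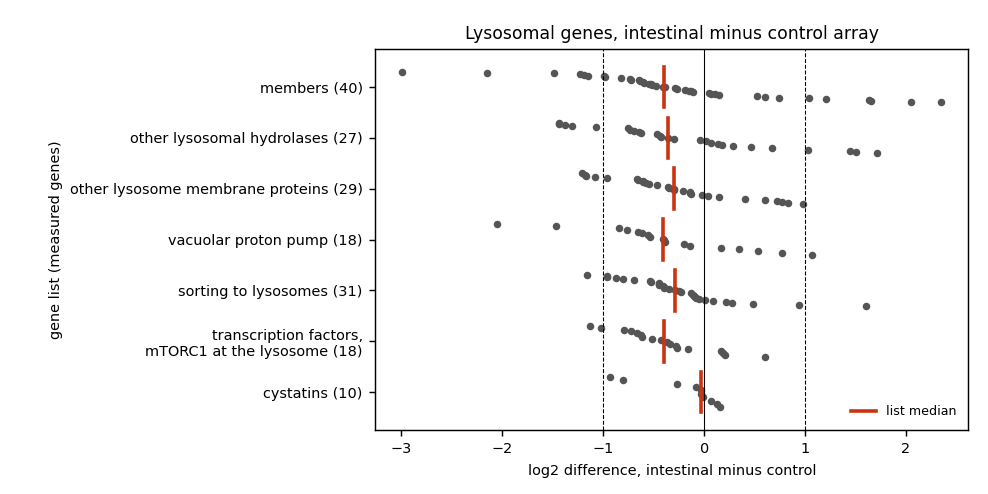
Log2 differences, intestinal minus control array, of the 40 lysosomal genes described here (members) and of 6 further lists; each point is a gene, the red bar is the list median and dashed lines mark 2-fold. Medians lie between -0.41 (proton pump) and -0.03 (cystatins), and the members hold both the lowest (-2.99) and the highest (2.35) difference shown.

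The genes with the core E-box, whose sequences are given above, were set beside those without it. In intestinal minus control, the 11 measured genes with the motif had a median of -0.29 (from -2.99 to 1.63; 1 called higher and 3 lower), and the 22 with a window and no match had a median of -0.47 (from -2.15 to 2.05; 3 higher and 3 lower). In Dll1 minus control the medians were -0.06 and -0.07, and in TGF-β1 minus control -0.10 and -0.06. Among the genes with a motif, Naglu was the lowest in intestinal cells (-2.99) and Lgmn the highest (1.63), while Lamp1 with 4 copies differed by -0.15. No match was found in the windows of Arsb, Gm2a, Ids, Smpd1, Ctss and Grn, which says only that these letters are not there.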

How the data were processed

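RNA from 4 mast cell groups (1 array each) was amplified from 2 ng and hybridised to Affymetrix GeneChips, per the labels' protocols. The table deposited by the authors holds 33793 probe sets on a log2 scale. How they summarised and normalized it is not given in the sources used here, nor is a build. Sorted values of the arrays differed by at most 0.25, so no further normalization was applied. Symbols came from the platform annotation: 23521 probe sets had 1 symbol, 1814 several and 8458 were not listed. For 1082 genes with more than 1 probe set the brightest was used. Differences, counts and medians were computed with Python 3.11.15 and pandas 2.3.3; with 1 array a group no p-value was computed; it is the number of arrays that bounds precision. The computation of the calls was tested on simulated data with large differences in bright genes, which checks the arithmetic and not the error rate. The alternatives tried were a 99th percentile limit, no limit, averaging over probe sets, subtracting each array's median, repeating quantile normalization and subtracting an offset of 16.

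By rule, values on all arrays are given for genes past 2-fold in any comparison, for the largest differences of each role group and for Lamp1, Lamp2, Cd63, Tfeb, Ctsd, Hexa and Grn, with up to 4 called genes of each further list. Other members, list genes and markers were named after their values were seen. The genes, lists, comparisons and alternatives were chosen with earlier results of these data known. Mast cell granule genes were listed too. In intestinal cells 3 of 11 were called higher and 5 lower than in control, against 4.47% and 6.73% of all genes tested. With TGF-β1 3 were higher (against 0.506%) and none lower (against 0.887%). With Dll1 4 were higher (against 1.63%) and none lower (against 1.78%). Promoter windows came from RefSeq; protein sequences were not used here.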

Additional observations from a re-analysis of the deposited data

How the results depend on the processing

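Of 72 recomputed counts and medians (12 results under 6 alternatives), 69 stayed within 1.5 times the reported count or within the probe set spread of the reported median. The exception was the number of lysosomal genes called lower with TGF-β1, 1 as reported and 2 with array medians subtracted, without a background limit or with the offset of 16 subtracted, where Ctsf joined Gm2a. The median for intestinal minus control lay between -0.46 and -0.34. Medians use measured differences, so changing or dropping the background limit could not move them. The spread allowed for a median is that of a single probe set (0.24 to 0.46). It is wide beside the medians of the culture comparisons (-0.05, -0.05 and 0.07), so the check on those medians is weak. Among 960 recomputed single differences none of the called ones changed sign, 8 calls were lost and 7 gained. Of 20 calls, 12 were kept under all alternatives. With the 99th percentile limit Ctsh was lost with Dll1 (0.45) and in intestinal cells (0.77), and Ctsf in intestinal cells (-0.26), since more of their values were raised to the limit. With the mean of probe sets Arsb was lost with Dll1 (0.81 against control, 0.66 against TGF-β1) and Smpd1 in intestinal cells (-0.79), because a dim second probe set entered. With array medians subtracted Gm2a with Dll1 (0.94) and Ctss in intestinal cells (0.98) fell short, while Ctse and Gusb (both -1.04) passed. Over all genes tested the offset moved several counts: with TGF-β1 from 61 higher and 107 lower to 111 and 184, with Dll1 from 209 and 228 to 360 and 394, and for Dll1 against TGF-β1 from 278 and 240 to 434 and 403. In the further lists, for intestinal cells against control, sorting genes called lower went from 1 to 3 with array medians subtracted and to 2 with the offset, which also moved higher sorting genes from 1 to 2 and higher membrane proteins from 0 to 1. Lower regulators went from 2 to 1 with quantile normalization repeated. For Dll1 against TGF-β1, 1 other hydrolase was lower without a limit or with the offset, and with the offset 1 sorting gene was higher and 1 lower. No paired analysis was possible because each group has 1 array. Dim genes such as Ctsh, Ctsw, Ctsf and Tfeb are limited by their small signal over background.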

Other observations

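The enzymes that take heparan sulfate apart can be set beside those that act on chondroitin and dermatan sulfate, a grouping made after the values were seen and so given as values alone. Mast cells store heparin, a relative of heparan sulfate, or chondroitin sulfates in their granules, depending on the subtype. In intestinal mast cells against control BMMCs, Naglu differed by -2.99, Ids by -2.15, Hgsnat by -1.31, Gusb by -0.98, Idua by -0.82 and Sgsh by -0.29. Arsg and Arsk, measured sulfatases that also act on heparan sulfate, differed by -0.43 and 0.02. Arsg was below background in intestinal cells. Ndst2, which sulfates heparin during its synthesis in mast cells, read 11.21 in control BMMCs, 10.93 after TGF-β1, 10.49 after Dll1 coculture and 8.48 in intestinal cells, a difference of -2.73. Of enzymes that act on chondroitin sulfate, Arsb and Galns differed by 2.05 and 0.60, while Hexa and Gusb went the other way, at -0.55 and -0.98. Ids, Idua and Gusb also act on dermatan sulfate, so the groups share enzymes.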
